A study of Kluyveromyces lactis with 17 samples.

Results

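The mitochondrial ribosomal protein genes of the yeast Kluyveromyces lactis were taken as every locus whose RefSeq symbol (assembly ASM251v1) begins with MRPL, MRPS, MRP, RSM or IMG followed by a number. The rule found 69 of the 5335 loci in the deposited count table, and it used names only. By the roles of the same-named proteins in Saccharomyces cerevisiae, 40 belong to the large subunit of the mitochondrial ribosome and 28 are grouped with the small subunit, among them the assembly factor RSM22. MRP8 was assigned to neither, because its S. cerevisiae namesake is not an established subunit. In the same way, 42 have a counterpart in the bacterial ribosome and 25 are found only in mitochondrial ribosomes. All 69 had enough reads to be tested.

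The mitochondrial ribosome descends from that of the bacterial ancestor of mitochondria and translates the few messages that mitochondrial DNA encodes, mainly core subunits of the respiratory chain and the ATP synthase. Its proteins, with rare exceptions, are encoded in the nucleus, made in the cytosol and imported. In S. cerevisiae the genes for them are expressed together and respond to nutrients and to the growth program.

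RNA was measured by paired-end sequencing of polyadenylated RNA in 2 haploid strains, each a single line. The sir2Δ strain was LRY2993 (MATα sir2Δ hmlΔ hmrΔ) and the wild type (WT) was LRY2992 (MATa SIR2 hmlΔ hmrΔ), so both lack the silent mating-type cassettes. The strains differ in mating type as well as in SIR2, which encodes an NAD+-dependent histone deacetylase, and the effects of these differences cannot be told apart. Nicotinic acid is taken up by yeast and converted to NAD+. Cultures were grown overnight in minimal glucose medium that held 400 µg/L of it, then diluted into medium with 15, 45, 135 or 400 µg/L and harvested after 4 h. Each of the 8 groups had 2 replicates, and p-values measure the spread between these replicates. Libraries were numbered 7 and 8 at 15 µg/L, 5 and 6 at 45 µg/L, 3 and 4 at 135 µg/L, and 1 and 2 at 400 µg/L in both strains. WT at 400 µg/L also had a library 1R, which was taken as a repeat of library 1, so their counts were summed into 1 replicate. Libraries 1 and 1R of WT and library 8 of sir2Δ carry a RESUB prefix in their labels, which is not explained there.

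Libraries held 24663143 to 38246270 counted reads, and a mitochondrial ribosomal protein gene had 159 to 5961 reads in a library. Levels are given in CPM, counts divided by the library size after scaling with TMM factors. The locus KLLA0_F14663g, taken as SIR2 from prior knowledge, averaged 1.37 ± 0.730 CPM in sir2Δ and 140 ± 5.61 CPM in WT (SD, n = 8 columns each). Library 1 of WT at 400 µg/L stood apart from its 2 partners. Against the mean of libraries 1R and 2, the 69 genes were higher in library 1 by a median of 0.53 on the log2 scale, and 66 of them were higher. The other protein-coding genes of the same length, 1113 genes between the quartiles of 444 and 885 bp, were higher in it by 0.48, and all tested genes by 0.04. Mitochondrial ribosomal protein genes are short, with a median coding length of 657 bp against 1227 bp over all protein-coding genes tested, and 66 of 69 lie under that median. MRPL39 (1.22) and MRPL31 (1.19) were raised most in library 1, whereas RSM22 (-0.30), MRPL15 (-0.20) and MRP13 (-0.03) were lower in it. The main counts and changes that rest on WT at 400 µg/L are therefore also given without library 1, and values with no such remark use all libraries.

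The summed level of the 69 genes was lowest at low nicotinic acid in both strains, and library 1 exceeded every other library. In sir2Δ it was 3543 and 3751 CPM at 15 µg/L, 3381 and 3825 CPM at 45 µg/L, 3971 and 4168 CPM at 135 µg/L, and 4260 and 4277 CPM at 400 µg/L. In WT it was 3328 and 3581 CPM at 15 µg/L, 3782 and 4110 CPM at 45 µg/L, and 3778 and 3703 CPM at 135 µg/L. At 400 µg/L, WT libraries 1R and 2 had 3951 and 4051 CPM, and library 1 had 5557 CPM. Both sir2Δ sums at 15 and 45 µg/L lay under both at 400 µg/L, and the WT sums at 15 µg/L lay under those of every other WT library.

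**Figure D1:**
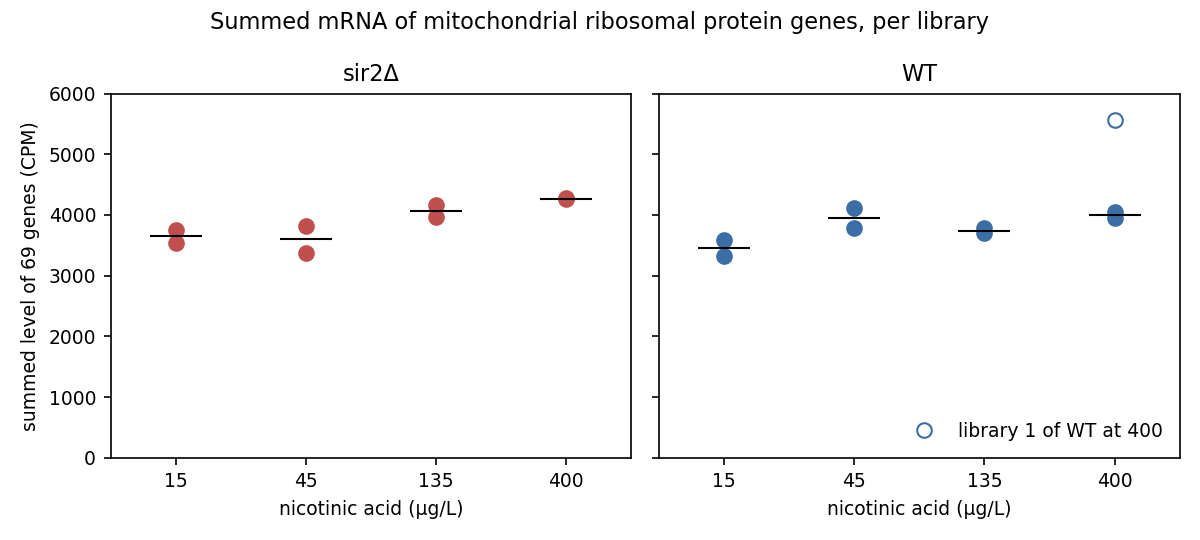
Summed level of the 69 genes (CPM, vertical axis from 0) in each library against nicotinic acid (µg/L, in order, not to scale), for sir2Δ and WT. Points are libraries and bars are means, drawn for WT at 400 µg/L without library 1, the open point at 5557 CPM, which lies above every other library (3328 to 4277 CPM).

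The genes were expressed at moderate and similar levels. Per kilobase of coding length, their mean levels had a median of 82.3 CPM per kb and ranged from 18.9 to 160 CPM per kb, against a median of 43.6 CPM per kb over protein-coding genes. Cytosolic ribosomal protein genes had a median of 1533 CPM per kb, and nuclear genes for respiratory chain and ATP synthase subunits had 805 CPM per kb. Of the 5 highest, MRPL31 (160 CPM per kb), MRPL3 (144) and MRPL23 (133) encode large-subunit proteins, and MRPS9 (144) and MRPS5 (142) encode small-subunit proteins. The lowest was RSM22 (18.9 CPM per kb), whose S. cerevisiae protein is a methyltransferase-like assembly factor and not a subunit. It was followed by MRPL44 (20.8), MRPL11 (46.3) and IMG1 (46.4) of the large subunit and RSM23 (41.5) of the small subunit. The genes are dispersed over all 6 chromosomes, from 4 on chromosome A to 20 on chromosome F. The one nearest a chromosome end lies at rank 31 from it, and MRPL6 and MRPL9 are the only neighbours among them.

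Across the 8 groups the levels moved little. With all libraries, the highest group mean of a gene was a median of 1.36 times its lowest, with a range of 1.17 to 1.83, and 53 of 69 genes stayed under 1.5-fold. All tested genes had a median of 1.43. Replicates of a group differed by a shared shift of the genes, which limits small changes. In sir2Δ at 45 µg/L, library 5 lay under library 6 by a median log2 difference of -0.19, with only 12 of 69 genes higher in library 5.

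**Figure D2:**
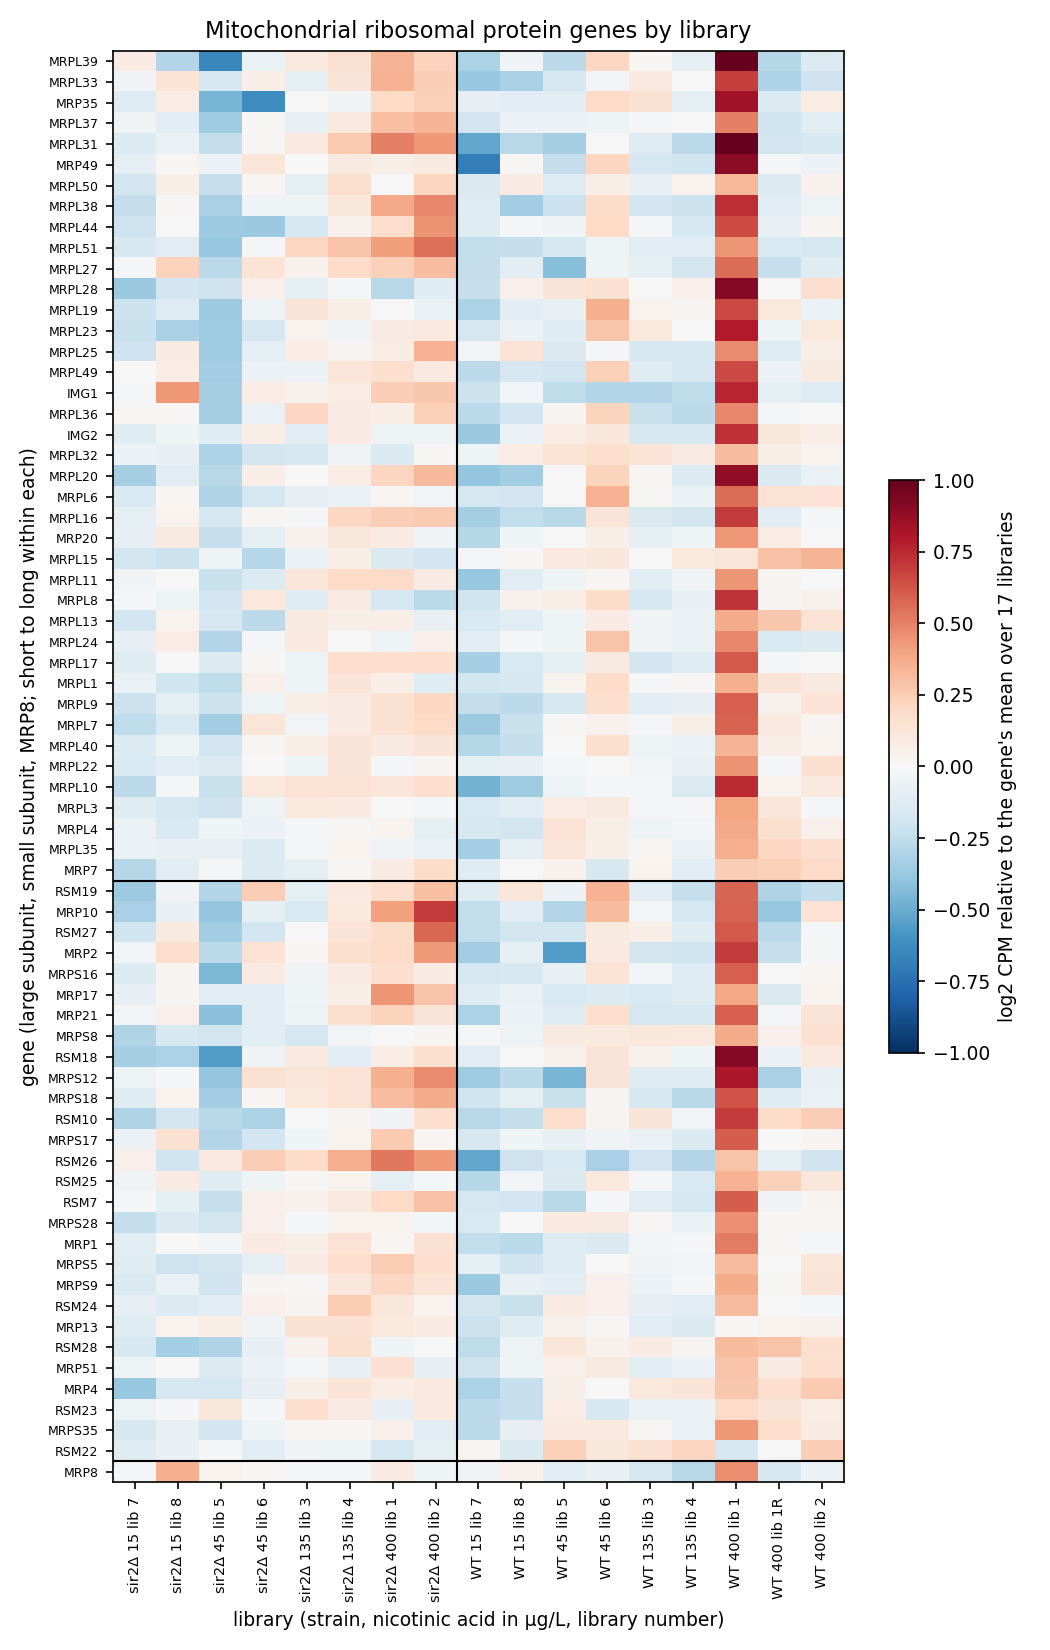
Level of each gene in each library as log2 CPM (0.5 CPM added) relative to the gene's mean over 17 libraries (colour, ended at -1 and 1). Rows run from short to long genes within the large subunit, the small subunit and MRP8, and columns run from 15 to 400 µg/L in sir2Δ and then in WT. The column of WT library 1 is red in nearly all rows, where 66 of 69 genes exceed the mean of libraries 1R and 2, while that of sir2Δ library 5 is mostly blue.

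At the lowest level of nicotinic acid a set of these genes was lower than at the highest level in both strains, and none of the 69 passed as higher. At 15 against 400 µg/L, 16 of 69 fell in sir2Δ, where 6.09% of all tested genes fell and 11.6% rose. In WT 36 of 69 fell, where 10.3% of all tested genes fell and 15.8% rose. Without library 1 the WT count was 23, with 12.5% of tested genes lower, and 22 of these were among the 36. Genes were called at an adjusted p under 0.05 by edgeR's quasi-likelihood test with Benjamini-Hochberg adjustment over 5224 genes. The strains shared 7 falling genes, which is 43.8% of the sir2Δ list and 19.4% of the WT list. Since 52.2% of the 69 genes fell in WT, the falls in sir2Δ did not include a larger share of them. Over all tested genes, 32.4% of the sir2Δ falls and 19.1% of the WT falls were shared. The strains again shared 7 without library 1, MRPL7 and MRPS9 standing in place of MRPL20 and MRPL31. These 7 were 33.3% of the sir2Δ list and 30.4% of the WT list, and 33.3% of the 69 genes fell in WT. The shares over all tested genes were then 28.4% of the sir2Δ falls and 18.7% of the WT falls.

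MRP4, RSM10, MRPS5, MRPL9 and MRP7 fell at 15 against 400 µg/L in both strains, with and without library 1. All 5 have bacterial counterparts, as do 42 of the 69 genes. MRPL20 and MRPL31, shared only with library 1, are mitochondria-specific, while MRPL7 and MRPS9, shared only without it, have bacterial counterparts. Whether shared falls favour either class was not tested. MRP4 and MRPS5 encode proteins of the small subunit, as does RSM10, while MRPL9 and MRP7 belong to the large subunit, MRP7 lying near the site of peptide bond formation in the bacterial counterpart.

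MRP4 (KLLA0_B13519g) was lower at 15 µg/L than at 135 and 400 µg/L in both strains. In sir2Δ it had 71.1 and 82.1 CPM at 15 µg/L, 81.5 and 87.1 CPM at 45 µg/L, 96.0 and 101 CPM at 135 µg/L, and 97.5 and 98.9 CPM at 400 µg/L. In WT it had 74.0 and 78.5 CPM at 15 µg/L, 96.0 and 92.6 CPM at 45 µg/L, 99.5 and 101 CPM at 135 µg/L, and 112, 104 and 111 CPM in libraries 1, 1R and 2 at 400 µg/L. The libraries at 15 µg/L did not overlap those at 135 and 400 µg/L in either strain, those at 15 and 45 µg/L overlapped in sir2Δ, and library 1 of WT did not stand out for this gene, which is long for the set (1221 bp). The log2 fold change at 15 against 400 µg/L was -0.36 ± 0.08 in sir2Δ (SE, edgeR adjusted p = 0.00579) and -0.51 ± 0.08 in WT (edgeR adjusted p = 0.000168), or -0.49 without library 1.

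RSM10 (KLLA0_F18436g) was low at 15 µg/L in both strains and at 45 µg/L in sir2Δ. It had 42.2 and 45.6 CPM at 15 µg/L, 42.8 and 41.6 CPM at 45 µg/L, 51.8 and 53.0 CPM at 135 µg/L, and 50.6 and 58.5 CPM at 400 µg/L in sir2Δ. The WT values were 42.8 and 44.0 CPM at 15 µg/L, 58.7 and 52.9 CPM at 45 µg/L, 56.9 and 51.0 CPM at 135 µg/L, and 84.5, 58.9 and 61.5 CPM in libraries 1, 1R and 2 at 400 µg/L. The 15 µg/L libraries of the strains nearly coincided, and library 1 was by far the highest. At 15 against 400 µg/L the gene fell by 0.31 ± 0.10 on the log2 scale in sir2Δ (edgeR adjusted p = 0.0383). The fall in WT was 0.60 ± 0.10 (edgeR adjusted p = 0.000234) and 0.47 ± 0.09 without library 1 (edgeR adjusted p = 0.000702).

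For MRPS5, a highly expressed member, sir2Δ libraries had 116 and 110 CPM at 15 µg/L and 151 and 143 CPM at 400 µg/L, while WT libraries had 119 and 110 CPM at 15 µg/L and 158, 126 and 138 CPM in libraries 1, 1R and 2. The low-dose libraries lay under those at 400 µg/L in both strains. Its log2 fold change was -0.38 ± 0.08 in sir2Δ (edgeR adjusted p = 0.0025) and -0.28 ± 0.08 in WT (edgeR adjusted p = 0.0135), or -0.21 without library 1 (edgeR adjusted p = 0.0461). MRPL9 changed by -0.34 ± 0.10 in sir2Δ and by -0.48 ± 0.10 in WT, or -0.34 without library 1. MRP7 changed by -0.33 ± 0.10 in sir2Δ and by -0.27 ± 0.10 in WT with library 1 and by -0.27 without it.

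**Figure D3:**
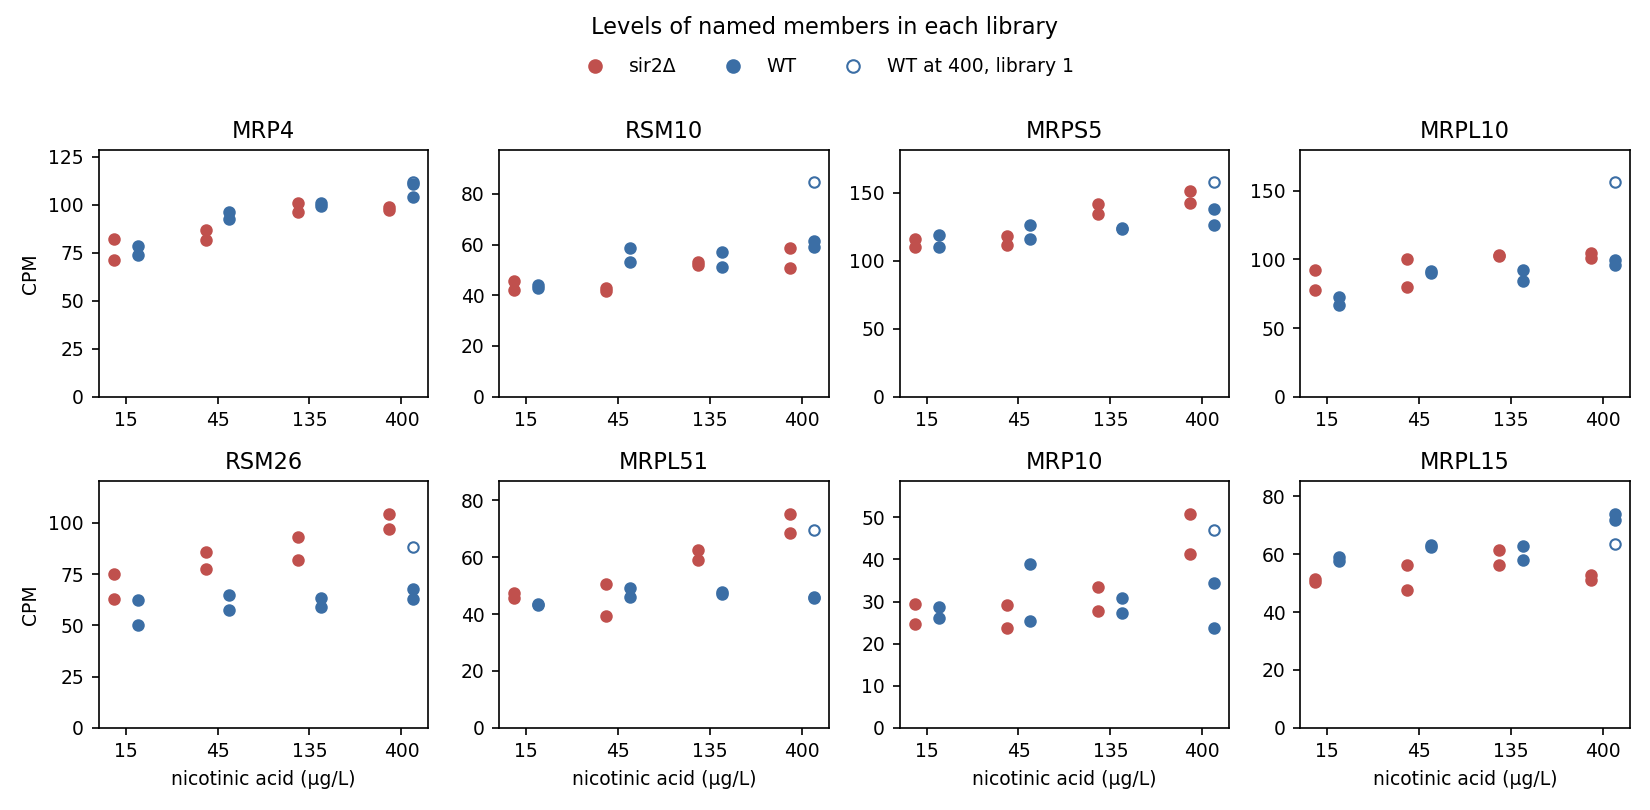
Level (CPM, each vertical axis from 0) of 8 named genes in each library against nicotinic acid (µg/L, in order, not to scale); sir2Δ points stand left of WT points and the open point is WT library 1. MRP4, RSM10 and MRPL10 are lowest at 15 µg/L in WT. For RSM26 the strains lie apart at every level, narrowly at 15 µg/L. For MRPL51 they lie apart at 15 and 135 µg/L and, outside library 1, at 400 µg/L.

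In sir2Δ the largest falls at 15 against 400 µg/L were in MRP10, MRPL51, MRPL31, RSM26 and MRPL38. MRP10 (KLLA0_E13355g), a small-subunit protein whose S. cerevisiae form carries paired cysteine motifs, had 24.7 and 29.4 CPM at 15 µg/L, 23.7 and 29.1 CPM at 45 µg/L, 27.8 and 33.4 CPM at 135 µg/L, and 41.4 and 50.9 CPM at 400 µg/L. The 400 µg/L libraries lay above the other 6. Its log2 fold change at 15 against 400 µg/L was -0.77 ± 0.17 (edgeR adjusted p = 0.0059), with the level at 15 µg/L being 58.8% of that at 400 µg/L. MRPL51 of the large subunit, a mitochondria-specific protein, changed by -0.63 ± 0.12 (edgeR adjusted p = 0.00114) and the likewise mitochondria-specific MRPL31 by -0.57 ± 0.16. RSM26, a small-subunit protein related in sequence to manganese superoxide dismutases, changed by -0.55 ± 0.13, and MRPL38, a large-subunit protein with a bacterial counterpart, by -0.55 ± 0.15. The 16 falling genes were 7 of 40 in the large subunit and 9 of 28 in the small subunit. The median over the 69 genes was -0.20, with 65 estimates negative, against 0.01 over all tested genes and -0.03 over the other genes of the same length.

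At 45 against 400 µg/L, 19 of 69 genes fell in sir2Δ and none rose, where 7.83% of tested genes fell and 10.7% rose. The median was -0.24, against 0.02 over all tested genes and -0.09 over other genes of the same length. MRP10 (-0.81 ± 0.18) and MRPL51 (-0.68 ± 0.12) fell again, and MRP35 (-0.78 ± 0.14), MRPL44 (-0.72 ± 0.18) and RSM27 (-0.67 ± 0.15) fell with them. MRP35, a large-subunit protein with a bacterial counterpart, had 14.8 and 13.1 CPM at 45 µg/L against 23.6 and 24.4 CPM at 400 µg/L, and MRPL44, a mitochondria-specific large-subunit protein, had 6.9 and 6.8 CPM against 10.2 and 12.5 CPM. Both comparisons use the same 2 sir2Δ libraries at 400 µg/L, which makes their counts dependent on each other. WT library 1 enters the shared estimate of the spread, and without it 21 genes fell at 15 µg/L, where 8.23% of tested genes fell, and 26 at 45 µg/L, where 10.5% fell. In the sir2Δ libraries at 400 µg/L, the 986 other protein-coding genes of up to 672 bp lay 0.12 and 0.15 above the mean library on the log2 scale, and the falling genes were short, with a median of 531 bp at 15 µg/L and 465 bp at 45 µg/L, against 726 and 751.5 bp for the rest of the 69. With an offset for gene length fitted in each library, 18 fell at 15 µg/L, where 23.3% of tested genes were called in either direction, and at 45 µg/L 11 fell and 2 were higher, where 19.8% were called. At 45 against 400 µg/L, 3 genes fell without library 5, 31 without library 6, 8 without library 1 of sir2Δ and 5 without its library 2. The share of all tested genes called in either direction was 6.68%, 23.8%, 5.94% and 6.34% in the same order, against 18.6% with all libraries. At 15 against 400 µg/L, 3 genes fell without library 7, 8 without library 8, 6 without library 1 of sir2Δ and 5 without its library 2, where 10.9%, 9.97%, 10.2% and 8.96% of tested genes were called in the same order, against 17.6% with all libraries.

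At 135 against 400 µg/L only MRP17 fell in sir2Δ, where 0.727% of tested genes fell. MRP17, a small-subunit protein with a bacterial counterpart, had 42.0 and 45.0 CPM at 135 µg/L and 58.8 and 52.8 CPM at 400 µg/L. Its log2 fold change was -0.36 ± 0.08 (edgeR adjusted p = 0.0423), and the call was lost on leaving out any 1 of the 4 libraries compared, with edgeR adjusted p-values of 0.135 to 0.355.

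In WT the largest falls at 15 against 400 µg/L were in MRPL10, RSM10, MRPL31, MRPL20 and MRP4, and those of MRPL31 and MRPL20 did not pass without library 1. MRPL10 (KLLA0_C12133g), a large-subunit protein with a bacterial counterpart, had 67.0 and 72.8 CPM at 15 µg/L, 89.95 and 91.8 CPM at 45 µg/L, 92.1 and 84.6 CPM at 135 µg/L, and 156, 95.6 and 99.6 CPM in libraries 1, 1R and 2 at 400 µg/L. The 15 µg/L libraries were the lowest with or without library 1. Its log2 fold change was -0.66 ± 0.12 (edgeR adjusted p = 0.000441), and -0.48 ± 0.10 without library 1 (edgeR adjusted p = 0.00129). MRPL31 and MRPL20, short mitochondria-specific members of the large subunit, lay highest in library 1. MRPL31 had 43.4 and 51.4 CPM at 15 µg/L and 127, 54.6 and 55.9 CPM in libraries 1, 1R and 2. Its change of -0.59 ± 0.16 (edgeR adjusted p = 0.0138) became -0.22 ± 0.11 without library 1 (edgeR adjusted p = 0.159). MRPL20 changed by -0.56 ± 0.15, and by -0.27 ± 0.12 without library 1 (edgeR adjusted p = 0.0964).

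The WT falls at 15 against 400 µg/L covered 23 of 40 large-subunit and 13 of 28 small-subunit genes, and 12 and 11 of them without library 1. By class they covered 21 of 42 genes with a bacterial counterpart and 15 of 25 mitochondria-specific genes, and 13 and 10 of them without library 1. The median over the 69 was -0.34, and -0.20 without library 1, against -0.01 and 0.00 over all tested genes. Other genes of the same length had medians of -0.02 and 0.08, and 107 of 1113 fell, or 66 without library 1. The falling genes were the longer ones in WT, with a median of 811.5 bp against 450 bp for the rest, and 891 bp against 471 bp without library 1. With an offset for gene length fitted in each library and all libraries kept, 46 fell, where 35% of tested genes were called in either direction. Leaving out libraries 1 and 1R together left 6 falling genes, leaving out library 7 at 15 µg/L left 10, and leaving out library 2 gave 49, where 19.4%, 16.1% and 26.8% of tested genes were called in the same order, against 26.1% with all libraries.

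**Figure D4:**
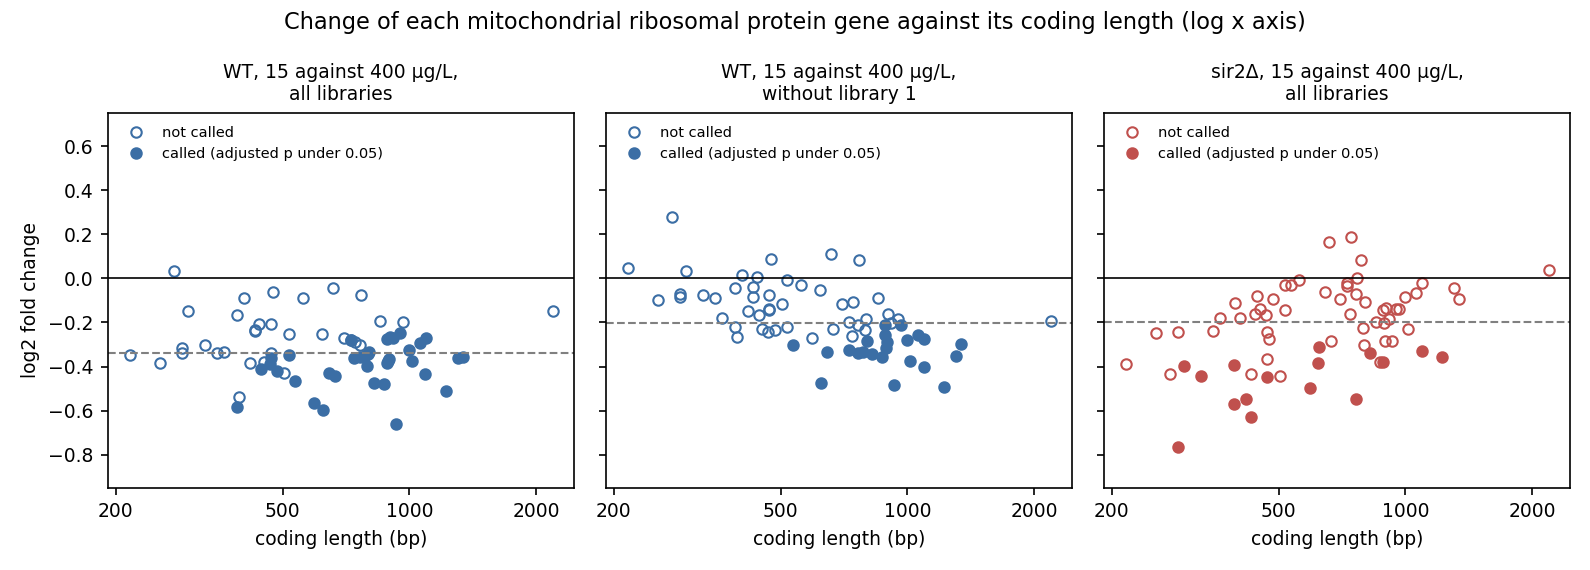
Log2 fold change of each of the 69 genes at 15 against 400 µg/L (vertical axis) against coding length (bp, log axis), for WT with all libraries, WT without library 1, and sir2Δ. Filled points passed the test, dashed lines mark medians of -0.34, -0.20 and -0.20, and in WT without library 1 the genes that fell lie mostly on the right, while in sir2Δ the deepest falls lie on the left.

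The other WT comparisons called few genes. At 15 against 135 µg/L, a comparison that does not use library 1 directly, MRP4 (-0.39 ± 0.08, edgeR adjusted p = 0.0023) and RSM10 (-0.31 ± 0.10, edgeR adjusted p = 0.0359) fell and no gene rose, where 6.85% of tested genes fell. Without library 1 in the estimate of the spread, MRPL33, MRPL10, MRPL7 and MRP1 passed as well, at log2 changes of -0.24 to -0.41, where 9.15% of tested genes fell. The median over the 69 genes was -0.11, against 0.01 over all tested genes. At 45 against 400 µg/L, 0 genes passed edgeR's test, where 10.7% of tested genes did. An unadjusted p under 0.05 was reached by 13 genes and by 1280 of all 5224 tested, DESeq2 called 0, and the median was -0.16. Without library 1 the count was again 0, where 12.8% of tested genes were called, 5 genes and 1485 of all 5222 tested had an unadjusted p under 0.05, and the median was 0.00. At 135 against 400 µg/L, 0 genes passed edgeR's test, where 3.08% of tested genes did. Here 30 genes and 772 of all 5224 tested had an unadjusted p under 0.05, DESeq2 called 1 lower, and the median was -0.22. Without library 1 the count was again 0, where 3.41% of tested genes were called, 10 genes and 636 of all 5222 tested had an unadjusted p under 0.05, and the median was -0.10.

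The median difference between the strains was small, and its sign was not the same at all levels. At 15 µg/L 1 of 69 genes was higher in sir2Δ and 0 were lower, where 14.7% of all tested genes were higher and 16% lower. At 45 µg/L 1 was higher and 10 were lower, where 20.9% of tested genes were higher and 18.7% lower. At 135 µg/L 5 were higher and 0 lower, where 16.5% of tested genes were higher and 15.3% lower. At 400 µg/L 4 were higher and 5 lower, where 22.5% of tested genes were higher and 22.3% lower. With the length offset the counts were 2 higher and 4 lower at 15 µg/L, 1 higher and 18 lower at 45 µg/L, 6 higher and 2 lower at 135 µg/L, and 2 higher and 18 lower at 400 µg/L, where 38.1%, 46.5%, 38.3% and 50.6% of tested genes were called in either direction from 15 to 400 µg/L. Upper-quartile scaling gave 2 higher and 17 lower at 400 µg/L, where 46.9% were called. The medians of the 69 log2 differences at 15, 45, 135 and 400 µg/L were 0.11, -0.16, 0.11 and -0.03, the last of which was 0.11 without library 1. Other genes of the same length had medians of 0.05, -0.01, 0.07 and 0.06, the last of which was 0.18 without library 1. At each of the 4 levels, a smaller share of these genes was called than of all tested genes. Over the levels, 49 genes were called at none, 15 at 1 level, 4 at 2 levels and RSM26 at 3 levels. Those at 2 levels were MRPL15 and RSM10, lower in sir2Δ, MRPL51, higher, and MRPL36, once in each direction. Without library 1, 29 were called at none, 32 at 1 level, 7 at 2 levels and 1 at 3 levels. The number of levels per gene was not counted over all tested genes, so it is not known whether repeated calls are rare here.

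**Figure D5:**
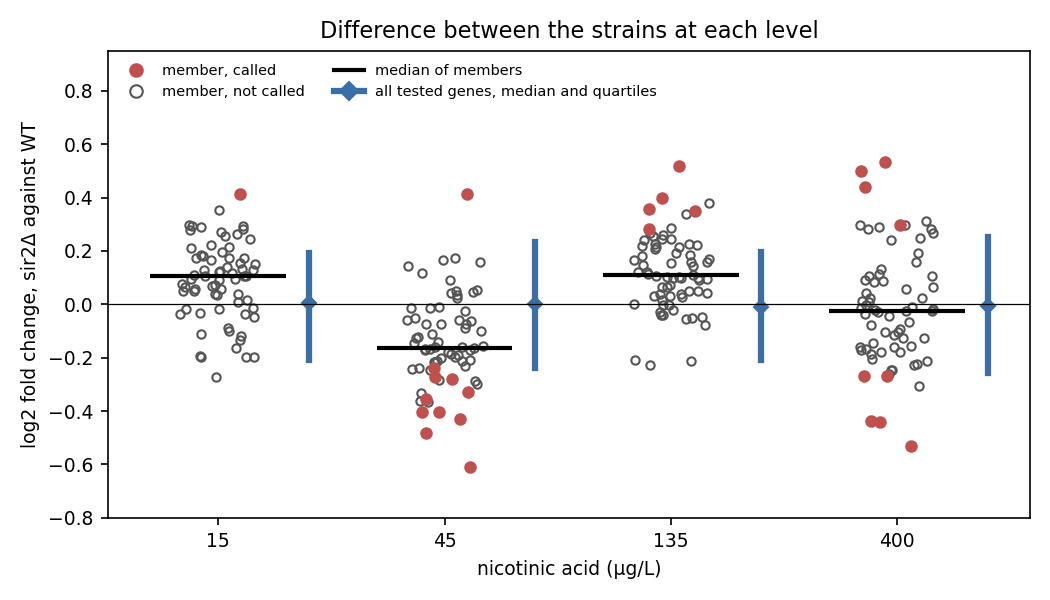
Log2 fold change of sir2Δ against WT (vertical axis) for each of the 69 genes at each level of nicotinic acid (µg/L); filled points passed the test, bars are medians (0.11, -0.16, 0.11 and -0.03), and diamonds with lines give the median and quartiles of all tested genes. Most points lie above 0 at 15 and 135 µg/L and under 0 at 45 µg/L, and the filled points at 400 µg/L lie on both sides.

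RSM26 (KLLA0_E01101g) was the gene most often higher in sir2Δ. It had 74.96 and 62.9 CPM in sir2Δ and 50.2 and 62.5 CPM in WT at 15 µg/L, and 77.3 and 85.9 CPM in sir2Δ against 64.8 and 57.6 CPM in WT at 45 µg/L. At 135 µg/L it had 82.0 and 92.98 CPM in sir2Δ and 63.2 and 58.8 CPM in WT. At 400 µg/L it had 105 and 97.0 CPM in sir2Δ, against 88.2, 67.6 and 62.8 CPM in WT libraries 1, 1R and 2. The sir2Δ libraries were higher at every level, narrowly at 15 µg/L, and the gene was highest at 400 µg/L in sir2Δ, while WT libraries other than library 1 stayed between 50.2 and 67.6 CPM. The log2 difference was 0.29 ± 0.13 at 15 µg/L (edgeR adjusted p = 0.0961), 0.42 ± 0.13 at 45 µg/L (edgeR adjusted p = 0.0148), 0.52 ± 0.12 at 135 µg/L (edgeR adjusted p = 0.0043) and 0.53 ± 0.12 at 400 µg/L (edgeR adjusted p = 0.00231), or 0.63 without library 1. The interaction between 15 and 400 µg/L, which subtracts the change of WT from the change of sir2Δ, was -0.25 ± 0.18 and was not called (edgeR adjusted p = 0.401).

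MRPL51 and MRPL15 differed at 2 levels each, in opposite directions. MRPL51 had 59.1 and 62.5 CPM in sir2Δ and 47.7 and 47.2 CPM in WT at 135 µg/L. At 400 µg/L it had 68.6 and 75.3 CPM in sir2Δ, against 69.6, 46.1 and 45.6 CPM in WT libraries 1, 1R and 2, so that library 1 alone reached the sir2Δ range. It was higher in sir2Δ by 0.36 ± 0.12 at 135 µg/L and by 0.50 ± 0.11 at 400 µg/L (edgeR adjusted p = 0.0021), or by 0.65 without library 1. MRPL15, a large-subunit protein related to ribonuclease III, had 56.3 and 47.8 CPM in sir2Δ and 62.6 and 63.2 CPM in WT at 45 µg/L. At 400 µg/L it had 52.9 and 51.2 CPM in sir2Δ and 63.5, 71.8 and 74.1 CPM in WT libraries 1, 1R and 2. It was lower in sir2Δ by log2 differences of -0.27 ± 0.09 at 45 µg/L (edgeR adjusted p = 0.0265) and -0.44 ± 0.09 at 400 µg/L (edgeR adjusted p = 0.00088), or -0.49 without library 1.

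At 15 µg/L the called gene was MRPL33, a large-subunit protein with a bacterial counterpart. It had 25.2 and 28.5 CPM in sir2Δ and 19.8 and 20.5 CPM in WT, a log2 difference of 0.41 ± 0.14 (edgeR adjusted p = 0.0361). MRPL33 lost the call in 6 of 24 other settings. At 45 µg/L the largest differences were in MRP35 (-0.61 ± 0.14), MRPL44 (-0.48 ± 0.18), MRPL6 (-0.43 ± 0.11), MRPL32 (-0.40 ± 0.10) and RSM10 (-0.40 ± 0.10), all lower in sir2Δ. Of these, MRPL44 lost the call in 7 of 24 other settings, MRPL6 in 2, MRP35 and RSM10 in 1 each and MRPL32 in 0. MRP35 had 14.8 and 13.1 CPM in sir2Δ and 19.1 and 23.5 CPM in WT at that level. MRPL32 is the large-subunit protein whose maturation by a protease of the inner membrane gates ribosome assembly in S. cerevisiae, and it had 23.5 and 25.6 CPM in sir2Δ and 32.1 and 32.7 CPM in WT. The groups did not overlap for either gene. The count of 11 at 45 µg/L was 5 without library 5 and 19 without library 6 of sir2Δ, 3 without WT library 6, and 17 without either replicate of WT at 400 µg/L. Of all tested genes, 35.6%, 36.6%, 31.6% and 41.8% were then called, against 39.6% with all libraries.

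At 135 µg/L the 5 genes higher in sir2Δ were RSM26, MRPL36 (0.40 ± 0.12), MRPL51, MRPS18 (0.35 ± 0.13) and MRP13 (0.28 ± 0.08). Of these, MRPS18 lost the call in 11 of 24 other settings, MRPL51 in 6, MRPL36 in 4, and RSM26 and MRP13 in 2 each. The count was 3 and 1 without sir2Δ libraries 3 and 4, and 2 and 0 without WT libraries 3 and 4, where 23.7%, 20.7%, 21.1% and 21.3% of tested genes were called, against 31.8% with all libraries. MRP13, a mitochondria-specific protein of the small subunit, had 88.9 and 89.0 CPM in sir2Δ and 74.1 and 72.2 CPM in WT. At 400 µg/L RSM26, MRPL51, MRP10 (0.44 ± 0.17) and MRP17 (0.30 ± 0.08) were higher in sir2Δ, and MRPL28 (-0.53 ± 0.12), MRPL15, MRPL8 (-0.44 ± 0.13), MRPL35 (-0.27 ± 0.09) and RSM10 (-0.27 ± 0.10) were lower. Without library 1, MRPL8 (edgeR adjusted p = 0.052) and RSM10 (edgeR adjusted p = 0.192) lost the call and 7 of the 9 kept it. MRPL28, a mitochondria-specific large-subunit protein, had 39.4 and 43.8 CPM in sir2Δ, against 90.4, 47.6 and 53.8 CPM in WT libraries 1, 1R and 2. Library 1 was far above its partners, and the difference of MRPL28 was -0.29 without it (edgeR adjusted p = 0.0376). Without library 1, the difference of MRP17 was 0.42 and that of MRPL35 -0.24. The count was then 19 higher and 5 lower, where 29% of tested genes were higher and 26.9% lower. Among the 1113 other genes of the same length, 42.8% were higher and 16% lower. Without WT library 2 the count was 14, where 37% of tested genes were called in either direction. Of the genes higher in sir2Δ, MRP10 lost the call in 13 of 24 other settings, MRP17 in 5, MRPL51 in 1 and RSM26 in 0. MRP10 (0.67), MRPL31 (0.65), MRPS12 (0.61) and MRPL33 (0.57) were among the most raised in sir2Δ without library 1.

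Tests of whether the strains answered nicotinic acid differently called few of the genes. Between 15 and 400 µg/L the interaction called MRPL35 alone, a mitochondria-specific large-subunit protein with a positive value, where 7.5% of tested genes had a positive interaction and 9.71% a negative one. MRPL35 had 68.3 and 67.9 CPM at 15 µg/L and 70.0 and 68.3 CPM at 400 µg/L in sir2Δ, while WT had 56.3 and 67.2 CPM at 15 µg/L and 92.4, 82.6 and 80.5 CPM in libraries 1, 1R and 2 at 400 µg/L. The sir2Δ libraries were flat and both WT libraries at 15 µg/L lay under those at 400 µg/L. Its interaction was 0.41 ± 0.12 (edgeR adjusted p = 0.0284), or 0.38 without library 1 (edgeR adjusted p = 0.0259). Without library 1, MRPL51 (-0.54 ± 0.14) and RSM19 (-0.71 ± 0.25), a small-subunit protein with a bacterial counterpart, were called too, where 10.2% of tested genes had a positive and 12.7% a negative interaction. MRPL35 was not called without library 1, 2, 7 or 8 of sir2Δ or library 7 of WT. The median interaction over the 69 genes was 0.13, and 0.01 without library 1, against 0.01 and 0.00 over all tested genes. Other genes of the same length had medians of -0.01 and -0.11. Between 15 and 135 µg/L 0 genes were called by edgeR or DESeq2, where 8.63% of tested genes were called by edgeR, and 1 gene and 1057 of all 5224 tested had an unadjusted p under 0.05.

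Between 45 and 135 µg/L, a contrast added after the data were seen, nearly all genes had a negative interaction, and edgeR called 1. The median interaction was -0.28, with 67 of 69 estimates negative, against -0.01 over all tested genes and -0.09 over other genes of the same length. An unadjusted p under 0.05 was reached by 18 genes and by 751 of all 5224 tested. The called gene was MRPL36 (-0.73 ± 0.16, edgeR adjusted p = 0.0284), where 1.55% of tested genes had a negative interaction. MRPL36, a large-subunit protein with a bacterial counterpart, had 25.9 and 31.2 CPM at 45 µg/L and 38.0 and 34.8 CPM at 135 µg/L in sir2Δ, while WT had 33.3 and 38.3 CPM at 45 µg/L and 28.0 and 27.2 CPM at 135 µg/L. The direction between these levels was opposite in the 2 strains, without overlap. The 69 genes were shifted together in sir2Δ library 5 and WT library 6, at 45 µg/L, by medians of -0.23 and 0.09 on the log2 scale relative to the mean library. MRPL36 was not called without either of these libraries or without any of the 4 libraries at 135 µg/L.

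Over the 8 group means, the genes followed each other. The correlation of a gene with the mean of the other members had a median r of 0.785, or 0.697 without library 1, and 31 of 69 genes (44.9%) exceeded 0.8, or 23 (33.3%) without library 1. With all libraries, among the other 5009 protein-coding genes 2.91% exceeded 0.8. Those genes are mostly longer, and their share was not computed without library 1 or for genes of the same length. These values describe 8 means that share libraries, length effects and the shift of library 1, and no p is attached. With all libraries the lowest r were those of MRP8 (0.01) and RSM22 (0.08), which are not established subunits, followed by MRPL8 (0.22) and MRPL32 (0.24). Without library 1 the order was another, with the subunit gene MRPL8 (-0.18) lowest, then MRP8 (-0.15), RSM22 (-0.02), MRPL28 (0.03) and MRPL32 (0.10). RSM22 had 37.9 and 39.2 CPM at 15 µg/L and 36.4 and 38.7 CPM at 400 µg/L in sir2Δ, and WT had 41.7 and 37.4 CPM at 15 µg/L and 36.5, 41.4 and 49.2 CPM in libraries 1, 1R and 2 at 400 µg/L. MRP8 had 43.7 and 56.5 CPM at 15 µg/L and 46.6 and 42.8 CPM at 400 µg/L in sir2Δ, and WT had 43.0 and 45.5 CPM at 15 µg/L and 60.9, 39.5 and 42.4 CPM in libraries 1, 1R and 2 at 400 µg/L. Levels overlapped between 15 and 400 µg/L for both genes in both strains, but in WT those of MRP8 did so through library 1, since libraries 1R and 2 lay under both libraries at 15 µg/L. Neither gene was called in any comparison with all libraries, and without library 1 RSM22 was lower in sir2Δ at 400 µg/L (-0.27).

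Of the lists set beside the ribosomal proteins, those of mitochondrial translation had more falls than rises in WT. Of all tested genes, 10.3% fell and 15.8% rose in WT at 15 against 400 µg/L, and 12.5% fell without library 1. At 15 against 400 µg/L, 6 of 11 genes for mitochondrial ribosomal proteins with other names fell, among them RTC6 (-0.73), MNP1 (-0.43) and MRX14 (-0.42), with a median of -0.32 (4 fell and the median was -0.21 without library 1). Of 23 genes for mitochondrial translation factors and tRNA synthetases, 10 fell with and without library 1, led by MSF1 (-0.58), MSY1 (-0.52) and SLM5 (-0.51), whose S. cerevisiae namesakes encode mitochondrial tRNA synthetases for phenylalanine, tyrosine and asparagine. In sir2Δ, 2 of the 11 fell, MNP1 (-0.44) and MRX14 (-0.42), and of the 23, TUF1 (-0.32), the elongation factor, fell and the initiation factor IFM1 (0.52) rose. Of all tested genes, 6.09% fell and 11.6% rose in sir2Δ. Assembly factors and translational activators had 8 of 29 lower and 1 higher in WT, with a median of -0.04 (6 lower, 1 higher and -0.13 without library 1), and 1 lower and 3 higher in sir2Δ, with a median of 0.01. SOV1 (0.83), needed for translation of VAR1 in S. cerevisiae, rose most. Between the strains at 15, 45, 135 and 400 µg/L, 4, 1, 3 and 1 of the 11 were higher in sir2Δ and 0, 1, 1 and 0 lower. The gene higher at 45 µg/L was VAR1 (3.30 ± 0.85), which was also among those higher at 15 µg/L (2.95 ± 0.77) and averaged only 0.773 CPM. It is encoded by mitochondrial DNA, while the libraries were of polyadenylated RNA. Whether its few reads measure its level was not tested. Of the 23, 6, 1, 2 and 2 were higher and 0, 0, 0 and 3 lower. Of the 29 assembly factors and activators, 0, 3, 1 and 2 were higher and 3, 6, 6 and 8 lower. Of all tested genes, 14.7%, 20.9%, 16.5% and 22.5% were higher and 16%, 18.7%, 15.3% and 22.3% lower at these levels. Several of the list counts lie under these shares. Without library 1 the counts at 400 µg/L were 6 higher and 1 lower of the 11, 4 higher and 3 lower of the 23, and 2 higher and 11 lower of the 29. Of all tested genes, 29% were then higher and 26.9% lower.

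Among nuclear genes for the respiratory chain and ATP synthase, 11 to 22 of 29 were higher in sir2Δ than in WT, depending on the level. At 15 against 400 µg/L 10 of 29 fell in sir2Δ, led by QCR10 (-0.53) and QCR8 (-0.51) of the cytochrome bc1 complex, and 2 of 29 fell in WT, or 6 without library 1. Of all tested genes, 6.09% fell in sir2Δ, and in WT 10.3% fell and 15.8% rose, or 12.5% fell without library 1. The counts of the 29 higher in sir2Δ were 11, 19, 22 and 16 at 15, 45, 135 and 400 µg/L and 0 were lower, with medians of 0.22, 0.32, 0.41 and 0.29. Of all tested genes, 14.7%, 20.9%, 16.5% and 22.5% were higher and 16%, 18.7%, 15.3% and 22.3% lower. Without library 1, 15 of the 29 were higher and 1 was lower at 400 µg/L, with a median of 0.24, where 29% of tested genes were higher and 26.9% lower. Of 51 cytosolic ribosomal protein genes, 6 fell in sir2Δ at 15 against 400 µg/L, with a median of -0.20. In WT 4 rose, or 6 without library 1, and the median of -0.12 became 0.09 without library 1, so its direction is not given. Between the strains 0, 0, 8 and 1 of the 51 were higher in sir2Δ and 5, 6, 0 and 3 lower at 15, 45, 135 and 400 µg/L, and without library 1 the counts at 400 µg/L were 18 higher and 1 lower.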

How the data were processed

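The deposited table holds whole-number counts of reads per gene for 5335 K. lactis loci in 17 libraries. Per the submitters' processing notes, which name tools without their roles, the authors used Bowtie2, cutadapt, DESeq2, FastQC, featureCounts, MultiQC and SAMtools. For versions, settings, genome build and handling of strand, the entry is: not given in the sources used here. With overlapping genes, reads may therefore have been split or lost. A RefSeq table (ASM251v1) gave symbols, coding lengths and gene order, and no coordinates are printed.

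Counts of WT libraries 1 and 1R were summed, and genes were kept with filterByExpr (minimum count 10), which left 5224. A quasi-likelihood model (edgeR 4.0.16, R 4.3.3) with TMM factors and 8 group means was fitted to 16 columns. It had 8 residual degrees of freedom, and its coefficient of biological variation was 0.0857. All genes were tested in 14 comparisons with Benjamini-Hochberg adjustment in each, and genes with an adjusted p under 0.05 were called. The SE is the absolute log2 fold change over the square root of F. Levels per library use TMM factors over all 17 libraries. The fit was also run on simulated counts. These lacked the shifts with gene length and the departure of WT library 1. They cannot show how calls hold under either.

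The members and lists were chosen with earlier results of these data known, and the interaction between 45 and 135 µg/L was added after seeing them. Genes named with values are, per comparison, up to 5 called genes with the largest rise and 5 with the largest fall whose replicates do not overlap. The 5 highest and 5 lowest per kilobase, genes called against the main direction and genes called in interactions are named too. MRP8, RSM22, MRP7, MRPL9, MRPL31 and MRPL20 were also given values after these were seen. Lists of related genes came from S. cerevisiae names. Alternatives were DESeq2 1.42.0, other size factors, no filter, a length offset per library, a replicate block, libraries 1 and 1R as separate columns, and leaving out each replicate. Each replicate was left out for every comparison, also where it is not part of it. Numbers of settings in which a call was lost therefore include fits that hardly touch the comparison.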

Additional observations from a re-analysis of the deposited data

Results flagged for a closer look

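The change of MRPL35 between 15 and 400 µg/L differed between the strains, with an interaction of 0.41 on the log2 scale (edgeR adjusted p = 0.0284). That call was lost in 6 of 24 other settings. Its change was -0.02 ± 0.09 in sir2Δ and -0.43 ± 0.09 in WT (SE). The difference of MRPL36 between the strains changed sides between 45 and 135 µg/L, with an interaction of -0.73 (edgeR adjusted p = 0.0284). MRPL36 in sir2Δ against WT was -0.33 on the log2 scale with 45 µg/L, and 0.40 with 135 µg/L.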

How the results depend on the processing

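Counts of called genes are given here, with the count in the report in brackets after each comparison. Shares are those of all tested genes called in either direction. In the report they were 30.7%, 39.6%, 31.8% and 44.7% for the strains from 15 to 400 µg/L. For WT they were 3.08%, 10.7% and 26.1% at 135, 45 and 15 against 400 µg/L, and 18.5% at 15 against 135 µg/L. For sir2Δ they were 1.9%, 18.6% and 17.6% at 135, 45 and 15 against 400 µg/L. The interactions had 17.2%, 8.63% and 2.05% for 15 with 400, 15 with 135 and 45 with 135 µg/L. Without WT library 1, counts were 2 for the strains at 15 µg/L (1) and 24 at 400 µg/L (9), 23 for WT at 15 against 400 µg/L (36), 6 for WT at 15 against 135 µg/L (2), and 3 for the interaction between 15 and 400 µg/L (1). The shares were 34.4%, 55.9%, 30.3%, 22.6% and 22.9% in the same order. With libraries 1 and 1R as separate columns the counts were 0, 2 and 2 for the strains at 15, 45 (11) and 135 µg/L (5). WT then had 22 at 15 against 400 µg/L and 1 at 15 against 135 µg/L. The shares were 18.7%, 28.4%, 20.7%, 19.5% and 10.4% in the same order. In the same fit sir2Δ had 0, 1 and 3 at 135 (1), 45 (19) and 15 µg/L (16) against 400 µg/L, and the interaction between 45 and 135 µg/L (1) had 0. Here the shares were 0.0574%, 5.26%, 8.49% and 0.746%. Upper-quartile factors, which moved the median of all genes to -0.110 for the strains at 400 µg/L and to 0.104 for the interaction between 15 and 400 µg/L, gave 0, 3 and 19 for the strains at 15, 135 and 400 µg/L. They gave 0 and 7 for sir2Δ at 135 and 15 against 400 µg/L, 3 for the interaction between 15 and 400 µg/L, and 0 for that between 45 and 135 µg/L. Shares with these factors were 30%, 32.5%, 46.9%, 2.37%, 18.6%, 19.4% and 2.01% in the order given. The length offset gave 6, 19, 8 and 20 for the strains from 15 to 400 µg/L. It gave 2, 1 and 12 for WT at 135 (0) and 45 (0) against 400 µg/L and at 15 against 135 µg/L, 0 for sir2Δ at 135 against 400 µg/L, and 9 and 1 for the interactions of 15 with 400 and with 135 µg/L (0). Shares with the offset were 38.1%, 46.5%, 38.3%, 50.6%, 5.53%, 17.6%, 26.6%, 3.43%, 23.7% and 12.8% in the order given. DESeq2 gave 1 for WT at 135 against 400 µg/L, 4 for WT at 15 against 135 µg/L, 2 for sir2Δ at 135 against 400 µg/L and 2 for the interaction between 15 and 400 µg/L. Its shares were 5.02%, 21.6%, 4.87% and 21.4%. The cause of these shifts was not tested.

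Leaving out each replicate gave 0 to 4, 3 to 19, 0 to 7 and 6 to 14 for the strains at 15, 45, 135 and 400 µg/L. It gave 0 to 8, 0 to 5 and 6 to 49 for WT at 135, 45 and 15 against 400 µg/L, and 1 to 5 for WT at 15 against 135 µg/L. For sir2Δ at 135, 45 and 15 against 400 µg/L it gave 0 to 2, 3 to 31 and 3 to 22. The interactions had 0 to 5 between 15 and 400 µg/L, 0 throughout between 15 and 135 µg/L, and 0 to 2 between 45 and 135 µg/L. A group left with 1 replicate was assumed to vary like the others. The share of all tested genes that were called moved as well, so these counts cannot tell a change of these genes from a change over all genes.

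Same-numbered replicates of the strains deviated together at 15 and 45 µg/L (r = 0.227 and 0.455 over all genes) and not at 135 and 400 µg/L (-0.0446 and -0.0935), so the numbers were not taken as pairs. With the replicate block, counts were 5, 19 and 19 for the strains at 15, 45 and 400 µg/L, 4 for the interaction between 15 and 400 µg/L and 2 for that between 45 and 135 µg/L, and the other counts stayed within 1.5 times. The shares of all tested genes called were 36.2%, 44.8%, 50.7%, 22.2% and 3.96% in the order given. No paired analysis was possible for the levels within a strain because they share no replicate numbers.

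Among the genes named with tests, 45 values under other settings no longer passed the threshold and 265 did. With each replicate left out in turn, 101 values no longer passed and 555 did. Under both kinds of setting, 0 changed direction. Most fits with a replicate left out removed one that is not in the comparison, so they test the call little. The genes were named as the largest calls of these same data. The median over the 69 genes changed sign in 2 of 24 settings for the strains at 400 µg/L, in 1 of 23 each for WT at 45 and sir2Δ at 135 against 400 µg/L, and in 4 of 24 for the interaction between 15 and 135 µg/L. Between the 2 replicates of a group, the median of the 69 genes differed by 0.03 to 0.22 on the log2 scale in size, which limits the resolution of changes in the median.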
